A study of Mus musculus with 15 samples.

Results

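Each gene's response to nerve injury was measured in mice with and without the miR-183 cluster, and the difference between the 2 responses, the interaction of injury and genotype, was taken per gene. The comparison used all 15 of the 15 libraries, each from the lumbar 4 to 6 dorsal root ganglia (DRG) of a single mouse of 3 to 6 months, on a mixed background in which C57bl6 prevailed. Controls were Wnt1-Cre mice (naive replicates 1, 2, 3 and 6, injured replicate 15) and wild-type mice (naive replicate 7, injured replicates 18 and 23). Knockouts were Wnt1-Cre; mirflox/flox mice, naive replicates 4, 5, 8 and 9 and injured replicates 13, 19 and 21. Injured mice had a spared nerve injury (SNI): the tibial and common peroneal branches of the left sciatic nerve were tied and cut, and the sural branch was left. Wnt1-Cre acts in cells of the neural crest, which give the sensory neurons and glia of the ganglion but not its vessels or macrophages, so the other cells of a knockout ganglion keep the cluster. Only part of the controls carried Cre. Animal numbers were 948 to 956 in injured knockouts, 974 to 976 in injured controls and 1041 to 1082 in naive mice. The order of the animals therefore cannot be told apart from injury, or from genotype among injured mice, whereas the numbers of naive controls and knockouts interleaved. The time between injury and tissue collection is not given in the sources used here.

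The microRNAs of the cluster are cut from a common transcript, are abundant in sensory neurons and lower the mRNAs whose 3′ UTRs pair with their seeds. A sensory neuron whose axon is cut starts a regeneration programme, led by transcription factors such as Atf3, Jun and Sox11, and makes growth-associated proteins and new peptides. Resident macrophages, satellite glia and Schwann cells of the ganglion respond as well. The mature sequences are shown because the seeds (bases 2 to 8, in capitals) define the sites searched for among the genes described here. They are from RefSeq on GRCm38.p6, from the minus strand of chromosome 6.
miR-183-5p: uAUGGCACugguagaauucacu
miR-96-5p: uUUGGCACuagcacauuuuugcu
miR-182-5p: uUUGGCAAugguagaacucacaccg
They lie at chr6:30169711-30169732, chr6:30169506-30169528 and chr6:30165962-30165986. Their precursors are too short for mRNA libraries. In the 15 libraries together Mir183 had a count of 0, Mir96 of 1, Mir182 of 2 and Wnt1 of 8, and the loss of the cluster could therefore not be checked.

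Levels are CPM, a gene's count relative to the TMM-scaled total of its library, and all changes are on the log2 scale. A called gene had an adjusted p (Benjamini-Hochberg, over all 16976 genes tested) below 0.05 in edgeR's quasi-likelihood test. The sensory neuron channel Scn10a was at 729 to 1378 CPM, the neurofilament gene Nefh at 1303 to 2307 and the satellite glia gene Fabp7 at 178 to 1022.8 in all 15 libraries, as the label of the tissue says. Control SNI replicate 23, a wild-type mouse, stood apart. It held 5.25 M counts against 7.59 to 10.8 M in the other 14, and 7.43% of its counts were mitochondrial against 2.26 to 3.60%. Of the genes tested, 25% had their highest and 24.7% their lowest level in that library, and the next library, knockout SNI replicate 19, reached 11.2% and 11.9%. Results are therefore given with and without replicate 23. Sex is not labelled. The female transcript Xist was over 100 CPM in 1 of 5 control naive, 2 of 3 control SNI, 2 of 4 knockout naive and 1 of 3 knockout SNI mice.

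No gene's response to injury was called different between the genotypes, and the 306 genes called for injury in both all moved in the same direction. Both statements changed without control SNI replicate 15, the only injured control with Cre, as given below. The interaction had 0 called genes (0% of 16976) with edgeR, and its smallest adjusted p was 0.0872. At an unadjusted p under 0.05 there were 2281 genes (13.4%), of which 884 had a positive interaction (5.21%, a more positive response in knockouts) and 1397 a negative one (8.23%). DESeq2 called 13 genes and limma-voom 0, with 1868 at an unadjusted p under 0.05. In edgeR with the Cre allele as a covariate, 915 genes were at an unadjusted p under 0.05. With that covariate and without replicate 23 there were 1037. Since 2 of the injured controls were wild-type, Cre and the loss of the cluster could be told apart only in part.

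Injury changed 421 genes in controls (2.48% of those tested), 360 higher (2.12%) and 61 lower (0.359%). It changed 1717 genes in knockouts (10.1%), 1218 higher (7.17%) and 499 lower (2.94%). These counts moved with single libraries. In controls the count was 280 without naive replicate 7, 783 (4.61%) without SNI replicate 23 and 1498 without SNI replicate 15. In knockouts it was 1113, 1066 and 824 without naive replicates 4, 5 and 8, 587 and 805 without SNI replicates 19 and 21, and 4418 without control SNI replicate 23. That library is in neither knockout group and enters the knockout count through the shared estimate of spread and the scaling of the libraries. Genes called in both genotypes numbered 306, of which 274 were higher and 32 lower in both, and none was called in opposite directions. The other calls of each genotype were not shared. Without control SNI replicate 15, 416 genes were called in both genotypes, of which 399 had the same sign. A gene called in a single genotype is not thereby shown to differ between them.

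The 2 injury responses share no library, so their sizes could be set side by side. Of the 421 genes called in controls, 415 (98.6%) had the same sign in knockouts, with a median absolute change of 0.92 in controls and 0.90 in knockouts. Of the 1717 called in knockouts, 1535 (89.4%) had the same sign in controls, with medians of 0.25 in controls and 0.61 in knockouts. Without control SNI replicate 15 these shares fell to 59.9% of 1498 genes (medians of 0.72 in controls and 0.30 in knockouts) and to 63.3% of 2385. Without replicate 23 they were 98.7% of 783 and 93.1% of 4418. Each choice favours the genotype that made the call. The 2099 genes called for the mean injury effect of both genotypes (12.4%), 1404 higher (8.27%) and 695 lower (4.09%), favour neither, although a choice by the mean favours equal signs. Their number was 1316 without knockout SNI replicate 19 and 4995 without control SNI replicate 23. Among these, 2089 (99.5%) had the same sign in both genotypes, and the 2 changes differed by less than 1 in 95.8%. Without replicate 15 it was 96.8% of 2134. Pearson's r across the 2099 genes was 0.905, but 0.878 within the 1404 higher genes and 0.369 within the 695 lower ones. Over all genes it was 0.534, and 57.8% had the same sign, 49.0% without replicate 15 and 73.5% without replicate 23.

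The changes of the 2099 genes were larger in knockouts for 1588 (75.7%), with a median absolute change of 0.34 in controls and 0.55 in knockouts. For the same 2099 genes without replicate 23, the medians were 0.39 and 0.56, and 1608 (76.6%) were larger in knockouts. Genes chosen anew without each library in turn gave 55.3% (without control SNI replicate 15) to 81.8% (without knockout SNI replicate 13). Without both control SNI replicates 15 and 23, which leaves a single injured control, 58.4% of 3796 genes were larger in knockouts. Among the 306 genes called in both genotypes the medians were 0.97 and 1.14, and 222 (72.5%) were larger in knockouts.

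**Figure D1:**
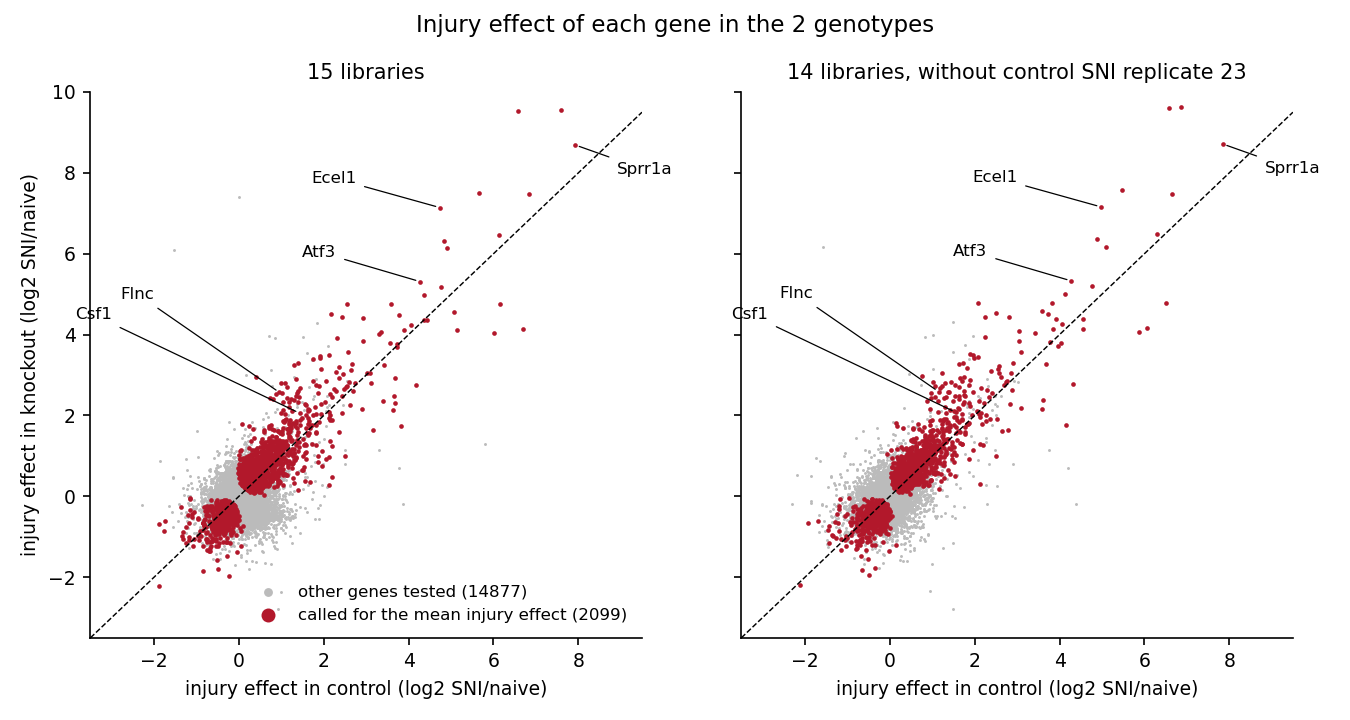
Injury response of each tested gene in controls (horizontal axis, log2 SNI against naive) and in knockouts (vertical axis), from all 15 libraries and from 14 libraries without control SNI replicate 23; the genes called for the mean injury effect are marked. The changes of the called genes were correlated (r = 0.905 with 15 libraries, 0.878 for those higher and 0.369 for those lower). With 15 libraries, 75.7% of them had the larger change in knockouts. The cloud of the remaining genes is narrower without replicate 23.

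The size of the response varied between single injured mice. The 1404 genes that rose with injury had a median change, against the naive mice of the same genotype, of 0.45, 0.46 and 0.22 in control SNI replicates 15, 18 and 23, and of 0.48, 0.69 and 0.61 in knockout SNI replicates 13, 19 and 21. The 3 knockouts lay above the 3 controls, but replicate 13 was close to controls 15 and 18, and replicate 23 was far below all others. The 695 genes that fell had medians of -0.26, -0.31 and -0.33 in the controls and -0.34, -0.45 and -0.43 in the knockouts, in the same order.

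**Figure D2:**
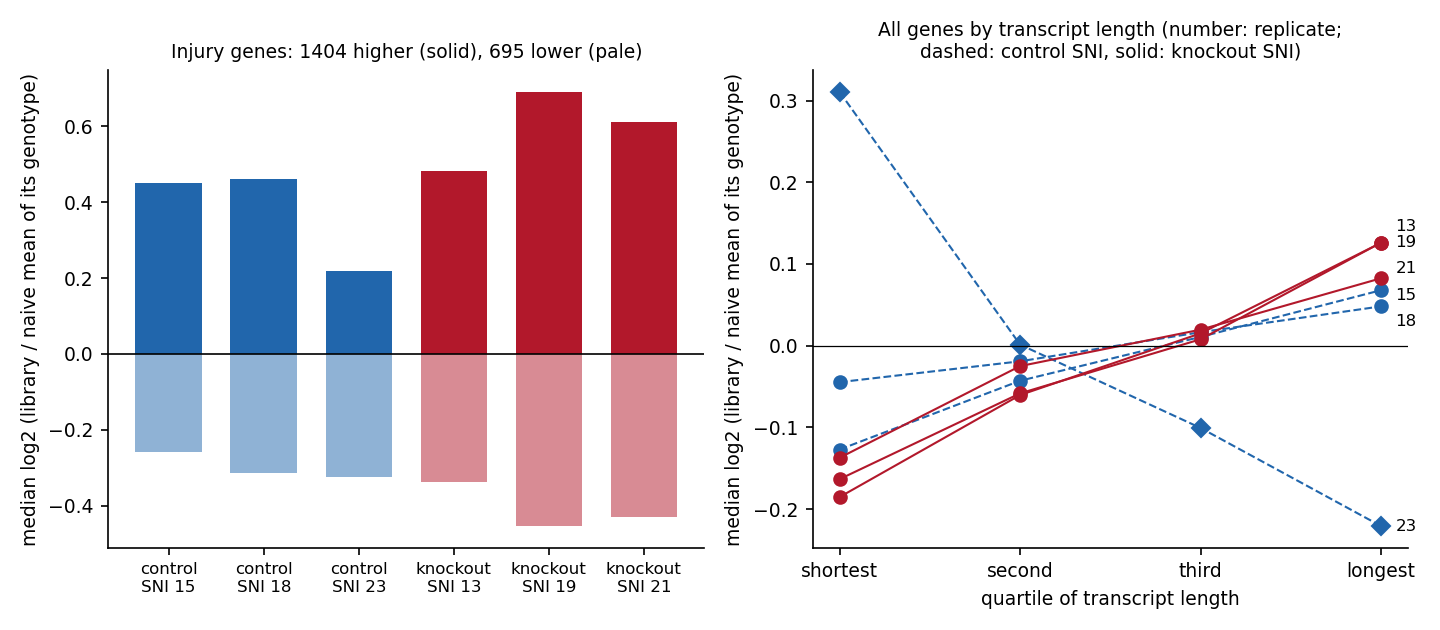
Left, median log2 change of the 1404 genes that rose and the 695 that fell with injury in each injured library, against the naive libraries of its genotype; right, median log2 change by quartile of transcript length in the same libraries. Replicate 23 is lowest for the genes that rose (0.22) and alone is above 0.2 for the shortest transcripts (0.31).

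Leaving out replicate 23 moved the interaction by a median of 0.113 over all genes, and by more than 0.5 in 5.74% of them. The median was 0.110 for control SNI replicate 15 and 0.0825 for replicate 18, where 1.57% and 2.81% of genes moved by more than 0.5, and 0.0234 to 0.0560 for the other 12 libraries. The common biological coefficient of variation fell from 15.3% to 11.4% without replicate 23, to 13.7% without replicate 15 and to 14.5% without replicate 18. In limma's estimate of library quality, replicate 23 had a weight of 0.143 and replicate 15 one of 0.394, against 0.769 to 1.84 in the other 13.

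Without replicate 23 the interaction had 1 called gene (0.00589%), Flnc. At an unadjusted p under 0.05 there were 1289 genes (7.59%), 621 positive (3.66%) and 668 negative (3.93%). The 2 lists at an unadjusted p under 0.05 shared 1041 genes, which is 45.6% of the list from 15 libraries and 80.8% of the list from 14. All 1041 had the same sign in both, which the 14 libraries shared by the 2 fits favour. The excess of negative interactions in the 15-library list was smaller without replicate 23. The largest count of calls came from leaving out another injured control. Without control SNI replicate 15, 1259 genes were called (7.42%), 509 positive (3%) and 750 negative (4.42%). That library was the only injured control with Cre. In a fit without it, Cre cannot be told apart from the loss of the cluster among injured mice. In the 750 negative genes the median change against naive controls was 0.97 in replicate 23, 0.10 in replicate 18 and -0.21 in replicate 15. In knockout SNI replicates 13, 19 and 21 it was -0.31, -0.45 and -0.35. These genes were chosen by a fit in which replicates 18 and 23 alone stood for injured controls. That choice favours a distance of those 2 from the knockouts. Atf3, Calcb, C1qb, Fasn, mt-Nd1, Ndufa1 and Hnrnpdl, described below, were called without replicate 15 but not with all libraries, with DESeq2 or without any other single library. Without both replicates 15 and 23 there were 18 calls. Leaving out control SNI replicate 18 gave 1 call, Flnc, leaving out knockout naive replicate 4 gave 1, Trp53i11, and each of the other 11 libraries gave 0.

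**Figure D3:**
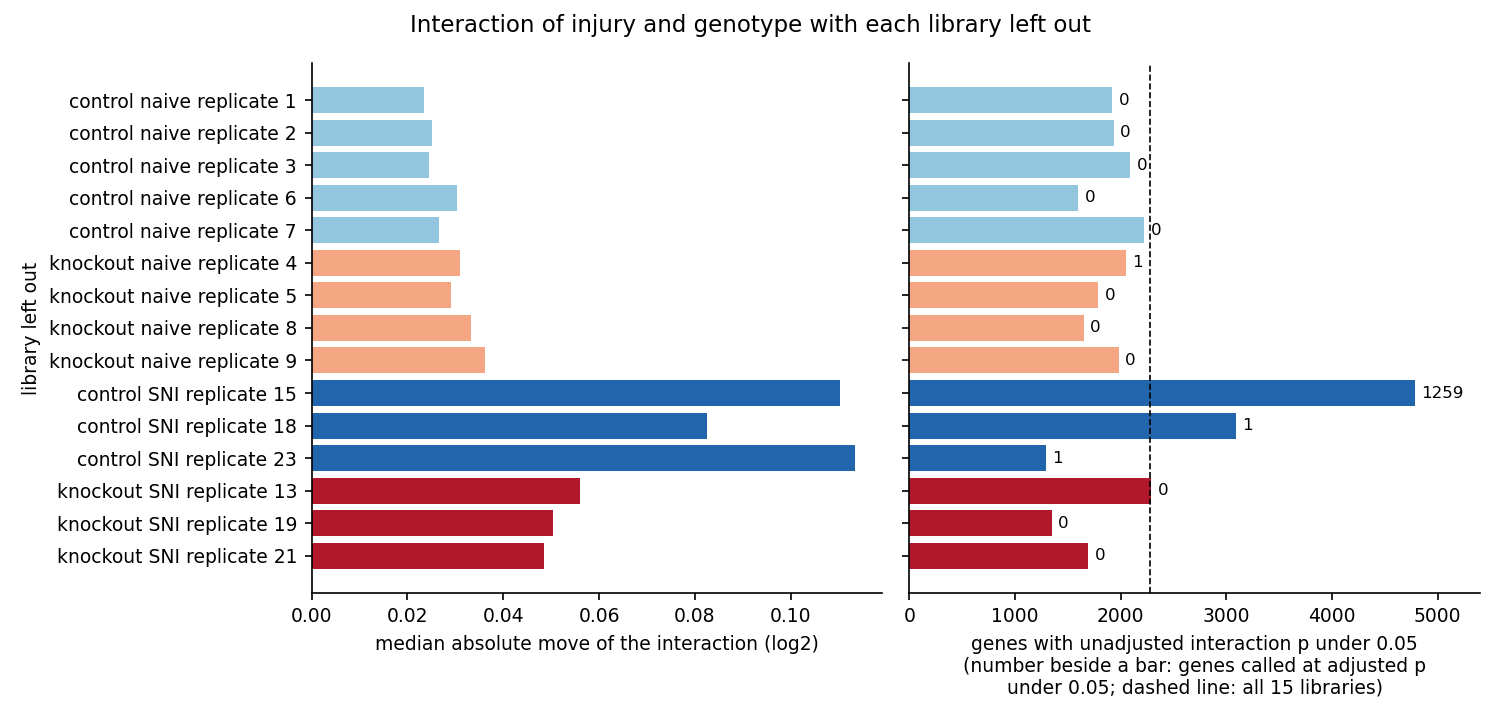
Left, median absolute move of the interaction (log2) over all genes on leaving out each of the 15 libraries; right, genes at an unadjusted interaction p under 0.05 in each such fit, with the number called beside the bar and a dashed line at the 2281 of all 15 libraries. Leaving out control SNI replicate 15 gave 1259 calls and each other library 0 or 1, while the median move was largest for control SNI replicate 23 (0.113).

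Among transcription factors of the axotomy response, Atf3, Jun and Sox11 rose in both genotypes. Atf3, a stress-induced factor and the standard mark of an injured sensory neuron (ENSMUSG00000026628, chromosome 1, 191170296 to 191218039, minus strand), was at 8.75, 8.72, 7.27, 5.46 and 9.03 CPM in control naive, 148, 152 and 151 in control SNI, 6.29, 7.23, 4.18 and 4.70 in knockout naive and 179, 268 and 224 in knockout SNI animals. All injured mice were far above all naive mice, and the 3 injured knockouts lay above the 3 injured controls, which were nearly equal. The response was 4.26 (SE 0.17, adjusted p = 7.26e-11) in controls and 5.31 (SE 0.19, adjusted p = 2.53e-11) in knockouts, and the interaction was 1.05 (SE 0.25, 95% interval 0.50 to 1.60, unadjusted p = 0.000622, adjusted p = 0.365). Without replicate 23 it was 1.06 (SE 0.26), and it ranged from 0.90 to 1.21 on leaving out each library. Jun, a subunit of the AP-1 factor, was at 40.0, 40.4, 37.4, 36.7 and 38.9 CPM in control naive, 92.3, 87.5 and 72.4 in control SNI, 33.7, 30.2, 31.9 and 38.0 in knockout naive and 76.9, 125 and 115 in knockout SNI animals. Injured knockouts and controls overlapped, since replicate 13 was below 2 of the controls. The interaction of Jun was 0.54 (SE 0.19, 95% interval 0.12 to 0.96, unadjusted p = 0.0116, adjusted p = 0.365).

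Sox11, a factor of neuronal development that is needed for regrowth, rose by 2.19 in controls and 2.45 in knockouts, with an interaction of 0.26 (SE 0.39) whose 95% interval was -0.60 to 1.12. Of the 17 tested members of the list of regeneration factors, 5 rose in controls and 7 in knockouts, beside 2.12% and 7.17% of all genes, and none fell. Interactions were positive in 10 of the 17, and in 8552 of all 16976 genes. Stat3 and Klf7 were called in knockouts alone, at adjusted p values for Stat3 of 0.0404 in knockouts and 0.836 in controls. The list's median interaction was 0.24, and 0.12 without replicate 23, beside 0.00 and 0.01 over all genes tested.

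Immediate early genes, which cells switch on within minutes of a stimulus, had positive interactions in 21 of 22 members, the exception in sign being Ier3. The median was 0.46 with all libraries and 0.47 without replicate 23. At an unadjusted p under 0.05, 4 were positive (Atf3, Junb, Jun and Nr4a2) and 1 negative, beside 5.21% and 8.23% of all genes. Junb, another AP-1 subunit, was at 8.36, 7.57, 8.11, 6.46 and 5.72 CPM in control naive, 6.67, 7.01 and 6.25 in control SNI, 6.19, 7.13, 6.17 and 7.70 in knockout naive and 8.204, 10.8 and 12.99 in knockout SNI animals. Injured controls lay within the naive range, and 2 of the 3 injured knockouts lay above all other mice. Its interaction was 0.77 (SE 0.24, 95% interval 0.24 to 1.31, unadjusted p = 0.00549, adjusted p = 0.365). The summed level of the list was 455, 446 and 429 CPM in control SNI replicates 15, 18 and 23, and 484, 675 and 621 in knockout SNI replicates 13, 19 and 21, against 211 to 315 in the naive mice. The list holds Atf3 and Jun, whose rise is given above and enters these sums. Over the 22 members the median injury response was 0.01 in controls and 0.45 in knockouts. Immediate early genes also respond to handling of the tissue, and the share of handling in the values was not tested.

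Of 39 tested effector genes of axotomy, 25 rose in controls and 27 in knockouts, beside 2.12% and 7.17% of all genes, with a median response of 1.25 and 1.11. The median interaction was 0.23, and 0.18 without replicate 23. At an unadjusted p under 0.05, 8 were positive and 3 negative, beside 5.21% and 8.23% of all genes. The list is known for its response to axotomy, so its injury counts are a check of the surgery rather than a finding. Bex1, a small growth-related protein, was the only member that fell, in knockouts (-1.18, adjusted p = 0.0111), and it was at 4.06, 3.30 and 9.05 CPM in injured controls 15, 18 and 23, with 4.28 to 5.44 in naive controls.

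Sprr1a, a cornified envelope protein that injured neurons make during regrowth, was at 182, 182.6 and 217 CPM in control SNI and 237, 427 and 364 in knockout SNI mice, from 0.364 to 1.49 and 0.380 to 1.304 in the naive groups. The injured knockouts lay above the injured controls without overlap, but the interaction was 0.76 (SE 0.50, 95% interval -0.34 to 1.86, unadjusted p = 0.147, adjusted p = 0.472). Ecel1, a neuronal endopeptidase strongly induced by axotomy (ENSMUSG00000026247, chromosome 1, 87147655 to 87156521, minus strand), was at 1.28, 1.72, 0.653, 0.364 and 2.03 CPM in control naive, 33.3, 41.8 and 19.2 in control SNI, 0.812, 1.68, 0.190 and 0.130 in knockout naive and 88.1, 104 and 122.8 in knockout SNI animals. Injured knockouts were above every injured control, and naive knockout levels reached below the level that 3 counts give. The responses were 4.73 and 7.14, and the interaction was 2.41 (SE 0.73, 95% interval 0.81 to 4.01, unadjusted p = 0.00508, adjusted p = 0.365), or 2.19 (SE 0.69) without replicate 23. A fold from naive levels so near 0 depends on the prior count. After injury alone, knockouts exceeded controls by 1.72 (SE 0.34, adjusted p = 0.0315).

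Csf1, the cytokine by which injured neurons call up microglia and macrophages, was at 16.8, 18.01, 18.1, 19.5 and 19.8 CPM in control naive, 52.1, 56.2 and 40.1 in control SNI, 24.2, 25.1, 22.7 and 21.5 in knockout naive and 80.1, 124 and 87.2 in knockout SNI animals. The injured knockouts lay above all injured controls, and the naive knockouts lay above all naive controls. Its response was 1.43 (SE 0.14, adjusted p = 6.47e-06) in controls and 2.06 (SE 0.14, adjusted p = 8.06e-08) in knockouts, with an interaction of 0.63 (SE 0.20, 95% interval 0.19 to 1.06, unadjusted p = 0.00563, adjusted p = 0.365), and 0.52 (SE 0.18) without replicate 23. For Tubb6, a beta tubulin, and Cdkn1a, the cell cycle inhibitor p21, the injured knockouts likewise lay above all injured controls. Tubb6 was at 61.5, 75.7 and 47.0 CPM in injured controls and 80.8, 119 and 95 in injured knockouts, and its interaction was 0.69 (SE 0.20). Cdkn1a was at 102, 110.0 and 83.0 and 116, 174 and 140.1, and its interaction was 0.61 (SE 0.18). In both genes the injured groups did not overlap, and the adjusted p of the interaction was 0.365.

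Gap43, a growth cone protein, differed from these. It was at 179, 219, 201, 171 and 204 CPM in control naive, 335, 461 and 401 in control SNI, 369, 352, 369 and 338 in knockout naive and 508, 626 and 571 in knockout SNI animals. Naive knockouts all stood above injured control replicate 15, and the injured knockouts lay above all injured controls. The response was 1.03 (SE 0.11, adjusted p = 1.58e-05) in controls and 0.67 (SE 0.11, adjusted p = 0.00121) in knockouts, so the interaction was negative, -0.36 (SE 0.16, 95% interval -0.71 to -0.02, unadjusted p = 0.0336, adjusted p = 0.365). Without replicate 23 it was -0.35 (SE 0.16). Before injury, knockouts exceeded controls by 0.87 (SE 0.10, adjusted p = 0.000111), and after it by 0.51 (SE 0.12, adjusted p = 0.0536).

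The injury-induced peptides Gal, Npy and Nts rose in both genotypes. Gal, a neuropeptide of injured sensory neurons, was at 79.4, 119.8 and 172 CPM in injured controls and 135, 249 and 144 in injured knockouts, from 9.64 to 14.2 and 7.83 to 14.2. Its interaction was 0.72 (SE 0.39), and 1.04 (SE 0.40) without replicate 23, the library with the highest level among the controls. Npy, another such peptide, went from 0.0932 to 1.198 CPM in naive controls to 43.4, 56.3 and 72.2 in injured controls, and to 28.02, 45.7 and 43.7 in injured knockouts. It was at 0 in 3 of the 4 naive knockouts, so no interaction is given. Nts, neurotensin, rose by 4.35 and 4.37, with an interaction interval of -0.86 to 0.90 and a sign that changed on leaving out single libraries. After injury its levels were lower in knockouts than in controls (45.2, 60.2 and 76.1 against 119, 135 and 264 CPM, -1.50 (SE 0.32, adjusted p = 0.0391)). Vip did not pass the filter on low counts.

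**Figure D4:**
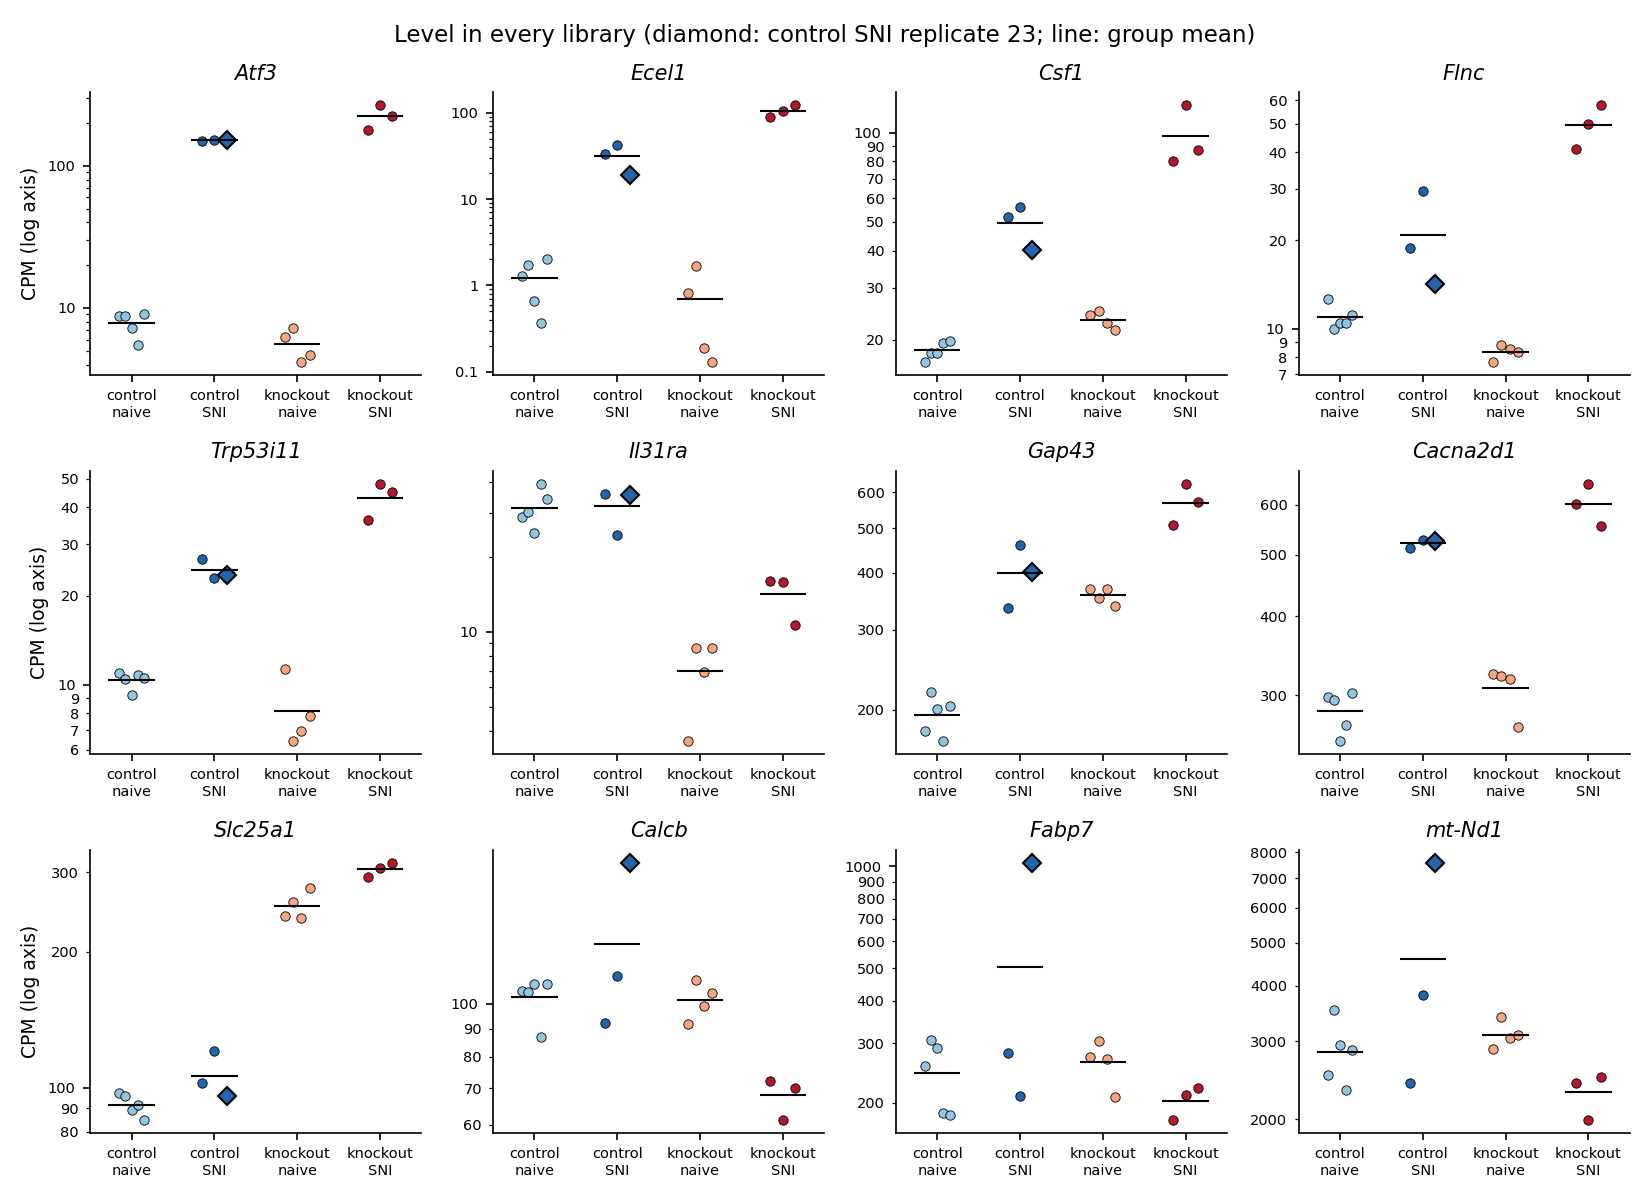
CPM of 12 genes in every library by group, on a log axis; each point is a mouse and the diamond is control SNI replicate 23. For Atf3, Ecel1, Csf1, Flnc and Trp53i11 the injured knockouts lie above all injured controls, whereas for Fabp7 and mt-Nd1 the diamond lies apart from every other point.

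The smallest p values among positive interactions belonged to Flnc, Trp53i11, Adgrd1, Ildr2 and Teddm2, of which the first 4 rose in both genotypes and all 5 had the larger response in knockouts. Flnc, filamin C, an actin crosslinker best known from muscle (ENSMUSG00000068699, chromosome 6, 29433256 to 29461883, plus strand), was at 12.7, 9.98, 10.4, 10.5 and 11.2 CPM in control naive, 18.9, 29.6 and 14.2 in control SNI, 7.72, 8.81, 8.54 and 8.35 in knockout naive and 40.9, 49.9 and 57.9 in knockout SNI animals. Naive knockouts lay below naive controls and injured knockouts above injured controls, without overlap in either case. The response was 0.96 (SE 0.18, adjusted p = 0.00513) in controls and 2.57 (SE 0.19, adjusted p = 1.37e-07) in knockouts. The interaction was 1.61 (SE 0.26, 95% interval 1.04 to 2.18, unadjusted p = 1.03e-05, adjusted p = 0.0872). Without replicate 23 it was 1.44 (SE 0.22), with an adjusted p of 0.0489, and it ranged from 1.44 to 1.95 over the single libraries left out. Muscle transcripts varied among the injured mice: the 16 skeletal muscle markers summed to 15.5, 570 and 23.1 CPM in control SNI replicates 15, 18 and 23 and to 1103, 245 and 1840 in knockout SNI replicates 13, 19 and 21, against 14.8 to 353 in naive mice. Among the injured controls Flnc was highest where the muscle sum was highest (replicate 18), and the highest level of all, 57.9 CPM, was in the library with the highest sum (knockout SNI replicate 21). The order differed elsewhere. Knockout SNI replicate 19 had more Flnc than replicate 13 (49.9 against 40.9 CPM) with a lower sum. Control SNI replicate 15 likewise had more than replicate 23 (18.9 against 14.2). Naive knockout replicate 8, with the highest sum of the naive mice (353), was at 8.54 CPM. The part of muscle RNA in the level of Flnc was not tested. Flnc lies near the cluster, whose microRNAs begin at base 30165962 of the same chromosome. On a mixed background, sequence inherited with the floxed locus cannot be told apart from the loss of the cluster for such a neighbour.

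Trp53i11, a p53-induced membrane protein (ENSMUSG00000068735, chromosome 2, 93187548 to 93201759, plus strand), was at 10.9, 10.4, 9.23, 10.7 and 10.5 CPM in control naive, 26.8, 22.99 and 23.5 in control SNI, 11.3, 6.44, 6.93 and 7.83 in knockout naive and 36.2, 48.0 and 44.95 in knockout SNI animals. All injured knockouts were above all injured controls, and 3 of the 4 naive knockouts were below all naive controls. The interaction was 1.17 (SE 0.22, 95% interval 0.69 to 1.66, unadjusted p = 6.11e-05, adjusted p = 0.245), and 1.16 (SE 0.22) without replicate 23. Adgrd1, an adhesion G protein-coupled receptor, was at 9.54, 11.5, 10.2, 14.2 and 9.495 CPM in control naive, 27.1, 16.1 and 17.0 in control SNI, 4.97, 3.66, 4.08 and 4.30 in knockout naive and 20.1, 34.2 and 19.9 in knockout SNI animals. The naive groups did not overlap and the injured groups did. Knockouts were lower before injury (-1.37 (SE 0.22, adjusted p = 0.00264)) and not called different after it (0.29), and the interaction was 1.66 (SE 0.32, 95% interval 0.96 to 2.36, unadjusted p = 7.25e-05, adjusted p = 0.245). Ildr2, a membrane protein of the immunoglobulin family, was at 15.05, 12.5, 10.3, 16.6 and 17.1 CPM in control naive, 25.9, 30.3 and 18.1 in control SNI, 10.2, 7.92, 5.41 and 6.65 in knockout naive and 31.8, 48.8 and 39.5 in knockout SNI animals. Knockouts were all below controls before injury and all above them after it. The interaction was 1.60 (SE 0.31, 95% interval 0.92 to 2.28, unadjusted p = 8.67e-05, adjusted p = 0.245), and 1.45 (SE 0.30) without replicate 23. Teddm2, a transmembrane protein, was at 26.9, 23.7, 24.5, 29.8 and 27.7 CPM in control naive, 25.7, 29.1 and 23.7 in control SNI, 23.5, 23.9, 22.9 and 21.5 in knockout naive and 34.6, 38.3 and 38.8 in knockout SNI animals. It did not move with injury in controls (-0.01, adjusted p = 0.965) and rose in knockouts (0.70 (SE 0.10, adjusted p = 0.000348)), and the interaction was 0.71 (SE 0.14, 95% interval 0.40 to 1.03, unadjusted p = 0.000118, adjusted p = 0.285). DESeq2 called all 5 of these genes, with all libraries and without replicate 23.

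Among negative interactions, the smallest p belonged to 1700048O20Rik, a long non-coding RNA named after its values were seen. It was at 2.75, 2.87, 3.73, 3.00 and 2.40 CPM in control naive, 3.96, 4.23 and 5.17 in control SNI, 4.47, 3.66, 4.94 and 5.48 in knockout naive and 1.39, 2.18 and 1.70 in knockout SNI animals. The naive groups overlapped, and the injured knockouts were below all other mice. The interaction of 1700048O20Rik was -1.94 (SE 0.30, edgeR adjusted p = 0.0872), and -1.83 (SE 0.32) without replicate 23. The gene 4833420G17Rik, likewise named afterwards, was at 17.4, 19.3, 19.9, 19.5 and 16.6 CPM in control naive, 15.1, 26.0 and 15.7 in control SNI, 27.2, 28.3, 33.8 and 31.2 in knockout naive and 16.0, 11.8 and 11.2 in knockout SNI animals. Its naive knockouts were above all other mice, and the injured groups overlapped. Its interaction was -1.26 (SE 0.24, edgeR adjusted p = 0.245), and -1.36 (SE 0.23) without replicate 23. Hyi, a hydroxypyruvate isomerase homologue, was at 19.3, 13.5 and 14.4 CPM in injured controls and 5.81, 4.63 and 6.09 in injured knockouts, without overlap, from 9.54 to 13.7 and 6.26 to 14.2 in naive mice. Its interaction was -1.40 (SE 0.31), and -1.44 (SE 0.32) without replicate 23. Akr1e1, an aldo-keto reductase, was at 23.5, 25.1 and 41.4 and 20.7, 16.1 and 9.29, and its interaction was -1.60 (SE 0.36), or -1.31 (SE 0.34) without replicate 23. DESeq2 called both, and Akr1e1 only with replicate 23. Its other calls were Comp, Sycp1, Gm21811 and Srxn1 with a positive interaction, and the 2 RIKEN genes above with a negative one. Among genes whose p was smallest without replicate 23, Hnrnpdl, an RNA-binding protein, had -0.49 with all libraries and -0.53 without it. Fnbp1l, a membrane-bending adaptor, had -0.53 and -0.62.

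Genes of energy metabolism and the ribosome moved strongly with replicate 23. The 76 nuclear genes of oxidative phosphorylation had a median interaction of -0.90 with all libraries and -0.21 without replicate 23. For the 13 mitochondrially encoded protein genes the medians were -0.93 and -0.16, and for the 79 cytosolic ribosomal protein genes -0.89 and -0.28, beside 0.00 and 0.01 over all genes. At an unadjusted p under 0.05 there were 49, 6 and 49 negative members, and 23, 2 and 25 without replicate 23, beside 8.23% and 3.93% of all genes. The respiratory chain subunit gene mt-Nd1 was at 2516, 3522, 2946, 2323 and 2864 CPM in control naive, 2407, 3818 and 7580 in control SNI, 2875, 3394, 3045 and 3090 in knockout naive and 2416, 1991 and 2486 in knockout SNI animals. Replicate 23 was above every other library. Replicate 18 was the next highest, and replicate 15 lay among the injured knockouts. Its interaction went from -1.13 to -0.56 without that library. Ndufa1, a nuclear subunit of complex I, was at 31.1, 31.6 and 111 CPM in injured controls and 24.0, 19.5 and 20.9 in injured knockouts, and its interaction went from -1.44 to -0.58. Injured knockouts still lay below control SNI replicates 15 and 18 for Ndufa1.

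In injured mice 15, 18 and 23 of the control group, the nuclear oxidative phosphorylation genes summed to 8365, 8447 and 19800 CPM, and in knockouts 13, 19 and 21 to 8272, 7743 and 8239. The ribosomal protein genes summed to 3264, 4118 and 9411, and to 3682, 3453 and 3702. Both lists hold short transcripts. Among the 16771 genes with a transcript length, the quartile of the shortest (up to 1918 bases) had a median interaction of -0.23, and that of the longest (4620 bases or more) 0.14. Without replicate 23 these were -0.07 and 0.07. In replicate 23 alone the median change against naive controls was 0.31 for the shortest and -0.22 for the longest. In the other 5 injured libraries it was -0.19 to -0.04 for the shortest and 0.05 to 0.13 for the longest, the opposite order. The part of transcript length in the interaction was not tested.

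Neuropeptides of uninjured nociceptors moved with the same library. Calcb, the beta form of CGRP, was at 106, 105, 109, 87.1 and 109 CPM in control naive, 92.1, 112 and 181 in control SNI, 91.9, 111, 99.0 and 104 in knockout naive and 72.3, 61.3 and 70.2 in knockout SNI animals. Injured knockouts were the lowest of all groups and did not overlap with injured controls. The response was 0.31 (SE 0.16, adjusted p = 0.35) in controls and -0.58 (SE 0.17, adjusted p = 0.0388) in knockouts. The interaction was -0.89 (SE 0.23, 95% interval -1.40 to -0.39, unadjusted p = 0.00127, adjusted p = 0.365), and -0.56 (SE 0.14) without replicate 23. Tac1, the precursor of substance P, was at 161, 193 and 485 CPM in injured controls and 156, 98.9 and 120.4 in injured knockouts, and its interaction went from -0.98 to -0.32. Nmb, neuromedin B, was at 54.3, 57.7 and 161 and 62.0, 38.6 and 44.2, and went from -0.93 to -0.25. The list of 15 peptides tested also holds the injury-induced Gal, Npy and Nts. Its median interaction was -0.53, and -0.22 without replicate 23, and 6 of the 15 interactions were positive with all libraries.

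**Figure D5:**
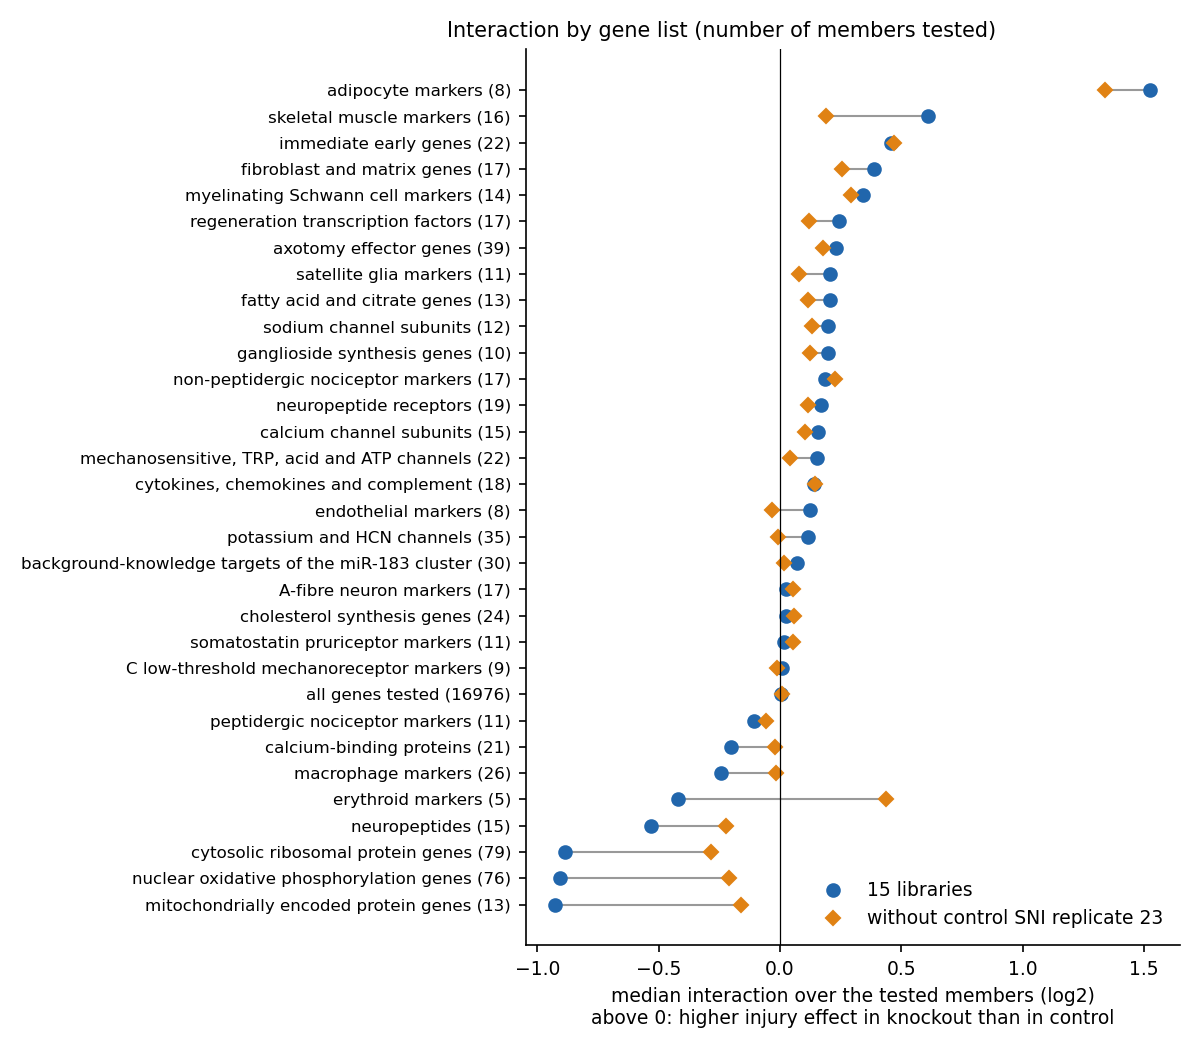
Median interaction log2 change of each gene list with at least 5 tested members, from all 15 libraries and from 14 without control SNI replicate 23. The oxidative phosphorylation, mitochondrial and ribosomal lists move from about -0.9 toward 0, while the immediate early genes stay at 0.46 and 0.47.

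Most genes called between naive genotypes had a difference of the same sign after injury, with a smaller median size. Of the 321 called in naive mice (1.89%), 292 (91.0%) had the same sign after injury, and their median absolute difference was 0.66 in naive and 0.43 in injured mice. The libraries of those 2 differences are separate, and a choice in naive mice favours a larger value there. The share was 79.1% of 426 genes without control SNI replicate 15, 88.2% of 718 without replicate 23 and 70.9% of 876 without both, and the count fell to as few as 157 without knockout naive replicate 9. Of the 177 called in injured mice (1.04%), 165 (93.2%) had the same sign in naive mice. That result rested on replicate 15, since 3556 genes were called without it, of which 50.6% had the same sign. In that fit no injured control carried Cre, whereas every injured knockout did. The count was 451 (78.7%) without control SNI replicate 18, and 58 and 63 without knockout SNI replicates 19 and 21. Of the 708 genes called for the mean knockout effect (4.17%), 705 had the same sign in naive and injured mice, a choice that itself favours equal signs. Their medians were 0.42 in naive and 0.52 in injured mice. The count was 483 to 2033 on leaving out single libraries, the highest without control SNI replicate 15, where 87.9% had the same sign, and it was 914 without replicate 23.

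Slc25a1, the mitochondrial citrate carrier that supplies lipid synthesis (ENSMUSG00000003528, chromosome 16, 17925223 to 17928219, minus strand), was at 97.2, 96.0, 89.4, 91.5 and 84.9 CPM in control naive, 102, 121 and 95.9 in control SNI, 240.2, 259, 238 and 277 in knockout naive and 294, 307 and 315 in knockout SNI animals. Every knockout was above every control, and the injured knockouts were above the naive ones without a call for injury (0.27, adjusted p = 0.0684). The knockout effect was 1.46 (SE 0.08, adjusted p = 3.38e-08) before and 1.52 (SE 0.10, adjusted p = 5.82e-07) after injury. Its interaction was 0.05 (SE 0.13), with a 95% interval of -0.22 to 0.33. Cacna2d2, an auxiliary calcium channel subunit bound by gabapentinoid drugs (ENSMUSG00000010066, chromosome 9, 107399612 to 107529343, plus strand), was at 52.4, 44.7, 45.6, 50.04 and 43.9 CPM in control naive, 49.1, 43.2 and 27.8 in control SNI, 92.4, 107, 94.0 and 94.97 in knockout naive and 105, 79.1 and 82.0 in knockout SNI animals. Every knockout was above every control, and replicate 23 was the lowest mouse. The interaction was 0.09 (SE 0.20) with an interval of -0.35 to 0.54, and -0.08 without replicate 23. Slc25a1 and Cacna2d2 each hold an 8mer match to miR-96-5p in the longest annotated 3′ UTR of GENCODE M21. In Slc25a1 the match starts at base 83 of a UTR of 593 bases. For Cacna2d2 the 30 bases that end in the match (in capitals) are shown, from the transcript strand on GRCm38.
Cacna2d2: ctctaaaactgaatgtcaaaccGTGCCAAA
They lie at chr9:107528204-107528233, plus strand, and the match starts at base 765 of a UTR of 1882 bases. No 8mer for any of the 3 microRNAs was found in the 3′ UTRs of Atf3, Jun, Sprr1a, Ecel1, Csf1, Gap43, Flnc or Trp53i11, which says only that these letters are not in those windows.

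Over the transcriptome, genes with an 8mer (GTGCCATA, GTGCCAAA or TTGCCAAA, on the transcript strand) numbered 1478 of the 14466 tested genes with a 3′ UTR (10.2%). Their median interaction was 0.05, and -0.01 in 10216 genes with neither an 8mer nor a 7mer match to seed bases 2 to 8. Sites matching 6 seed bases followed by A were not searched for. Without replicate 23 the medians were 0.03 and 0.01. The median injury response was 0.03 against 0.02 in controls and 0.05 against -0.03 in knockouts. The median knockout effect was 0.03 against 0.00 in naive mice and 0.07 against -0.02 in injured mice. Genes with an 8mer had longer transcripts (median 4703 against 3078 bases), and length moved with replicate 23 as given above. Its part in these medians was not tested.

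Cacna2d1, the better known gabapentinoid target and a gene that nerve injury raises, was at 298, 295, 254, 269 and 303 CPM in control naive, 513, 528 and 527 in control SNI, 324, 321, 318 and 267 in knockout naive and 602, 648 and 556 in knockout SNI animals. It rose by 0.88 (SE 0.09, adjusted p = 9.66e-06) in controls and 0.97 (SE 0.09, adjusted p = 3.86e-06) in knockouts. The naive groups overlapped, and the injured knockouts lay above the injured controls, a difference of 0.20 (SE 0.10, adjusted p = 0.228) that was not called. The interaction was 0.09 (SE 0.13) with a 95% interval of -0.19 to 0.37, and its values on leaving out single libraries were 0.02 to 0.14. Cacnb1, another subunit of these channels, was at 54.7, 49.2 and 33.6 CPM in injured controls and 80.3, 81.9 and 91.0 in injured knockouts, with an interaction of 0.27 (SE 0.19), and 0.11 (SE 0.14) without replicate 23. Over the 15 calcium channel genes the median interaction was 0.16, and 0.10 without replicate 23, with no member at an unadjusted p under 0.05. The 12 sodium channel genes had 0.20 and 0.13, likewise with none. Among 35 potassium and HCN channels 4 were positive at that threshold, beside 5.21% of all genes, and 1 without replicate 23, beside 3.66%. Their median went from 0.12 to -0.01.

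Markers of itch and pain neurons had interactions of both signs. Of the 11 somatostatin pruriceptor markers 6 were positive, with a median of 0.02, and 1 of them at an unadjusted p under 0.05, Il31ra. Of the 17 non-peptidergic nociceptor markers 12 were positive, with a median of 0.18, and 3 positive and 2 negative at that threshold, beside 5.21% and 8.23% of all genes. Of the 17 A-fibre markers 10 were positive, with a median of 0.03, and 1 positive and 2 negative at that threshold. Il31ra, the interleukin-31 receptor of an itch neuron class (ENSMUSG00000050377, chromosome 13, 112519898 to 112594360, minus strand), was at 29.0, 30.4, 24.99, 39.3 and 34.0 CPM in control naive, 35.7, 24.5 and 35.6 in control SNI, 3.65, 8.61, 6.93 and 8.61 in knockout naive and 16.0, 15.9 and 10.7 in knockout SNI animals. Every knockout was below every control, and the injured knockouts were above all naive knockouts. Injury left it level in controls (0.01, adjusted p = 0.988) and raised it in knockouts (1.03 (SE 0.25, adjusted p = 0.0166)). The interaction was 1.02 (SE 0.33, 95% interval 0.29 to 1.75, unadjusted p = 0.00708, adjusted p = 0.365), and 1.11 (SE 0.36) without replicate 23. Mrgprd, a receptor of non-peptidergic nociceptors, was at 192, 190.3, 135, 217 and 248 CPM in control naive, 169, 115 and 187 in control SNI, 91.6, 105, 102 and 122.9 in knockout naive and 139.7, 156 and 134 in knockout SNI animals. Its naive groups did not overlap and its injured groups did, and its interaction was 0.77 (SE 0.25), or 0.92 (SE 0.27) without replicate 23. Ntrk3, the receptor of neurotrophin-3 in large sensory neurons, was at 24.7 to 30.5 CPM in naive and 36.4 to 49.5 in injured knockouts, with an interaction of 0.85 (SE 0.24).

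Mrgprb4, a receptor of neurons that respond to stroking, went the other way. It was at 10.7, 14.8, 12.8, 7.92 and 13 CPM in control naive, 18.5, 16.6 and 23.7 in control SNI, 43.7, 59.4, 39.5 and 34.6 in knockout naive and 45.4, 18.9 and 23.5 in knockout SNI animals. Naive knockouts were far above naive controls, and the injured groups overlapped. The interaction was -1.32 (SE 0.39, 95% interval -2.18 to -0.46, unadjusted p = 0.00421, adjusted p = 0.365). Mrgprb4 belongs to a family of close paralogs, and how reads shared between them were counted is not given in the sources used here. In bulk tissue, fewer cells of a class and less RNA per cell cannot be told apart, here and for every marker above. Calb2, a calcium-binding protein of A-fibre neurons, fell in both genotypes, from 9.24 to 11.7 to 2.81, 1.96 and 4.09 CPM in controls and from 2.67 to 3.78 to 0.505, 0.946 and 0.499 in knockouts. Its interaction was -0.33 (SE 0.37) with an interval of -1.14 to 0.48.

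Among genes of lipid synthesis, Fasn, fatty acid synthase, was at 509, 376 and 277 CPM in injured controls and 727, 1022 and 662 in injured knockouts, from 281 to 395 and 322 to 471 in naive mice. It rose in knockouts (0.99 (SE 0.19, adjusted p = 0.00441)) and was not called in controls (0.21, adjusted p = 0.601), with an interaction of 0.78 (SE 0.27), or 0.60 (SE 0.25) without replicate 23. The 13 fatty acid and citrate genes had a median interaction of 0.21, and 0.11 without replicate 23, and the 24 cholesterol genes 0.02 and 0.06. B4galnt1, an enzyme of ganglioside synthesis, and the Ras activator Rasgrf1 were higher in knockouts before and after injury. Their interactions were 0.46 (SE 0.21) and 0.07 (SE 0.22), and 0.28 (SE 0.15) and -0.10 (SE 0.16) without replicate 23.

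Among markers of the other cells of the ganglion, 10 of 26 macrophage markers rose in controls and 9 in knockouts, beside 2.12% and 7.17% of all genes. None fell, and the median interaction was -0.24, or -0.02 without replicate 23. Their sum was 648, 930 and 1172 CPM in control SNI replicates 15, 18 and 23 and 820, 1085 and 857 in knockout SNI replicates 13, 19 and 21. Csf1r, the receptor of Csf1, was at 49.5, 56.6 and 60.3 CPM in injured controls and 71.2, 83.8 and 71.2 in injured knockouts, without overlap. Its interaction was 0.39 (SE 0.14), and 0.47 (SE 0.13) without replicate 23. C1qb, a complement component, had the opposite sign (-0.81 (SE 0.30), and -0.54 (SE 0.28) without replicate 23). Glul, the glutamine synthetase of satellite glia, was at 306, 293, 278, 323 and 315 CPM in control naive, 302, 299.9 and 294 in control SNI, 273, 283, 278 and 320.3 in knockout naive and 353, 379.8 and 386 in knockout SNI animals. Its injured knockouts lay above all other mice, and its interaction was 0.39 (SE 0.11, 95% interval 0.14 to 0.64, unadjusted p = 0.00335, adjusted p = 0.365), and 0.39 without replicate 23. The satellite glia gene Fabp7, a fatty acid-binding protein, was at 281, 209.5 and 1022.8 CPM in injured controls, where replicate 23 was the highest, and 178, 211 and 221 in injured knockouts. Its interaction went from -1.41 to -0.37 without that mouse.

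The 14 markers of myelinating Schwann cells had a median interaction of 0.34, and 0.29 without replicate 23. They summed to 7956, 7974 and 7316 CPM in control SNI replicates 15, 18 and 23 and to 5869, 9117 and 11274 in knockout SNI replicates 13, 19 and 21, so the groups overlapped. The 17 fibroblast and matrix genes had 0.39 and 0.26. Comp, a cartilage matrix protein, was at 20.8, 32.2, 9.88, 29.0 and 13.9 CPM in control naive, 6.67, 6.70 and 3.23 in control SNI, 12.7, 12.8, 12.5 and 10.7 in knockout naive and 10.3, 20.8 and 35.0 in knockout SNI animals. Naive controls spread widely, and the injured knockouts lay above the injured controls. Comp fell in controls (-1.86 (SE 0.45, adjusted p = 0.0466)), a call lost without replicate 23 (adjusted p = 0.131), and its interaction was 2.72 (SE 0.61, 95% interval 1.39 to 4.06, unadjusted p = 0.000548, adjusted p = 0.365). Adipocyte markers summed to 67.9, 150 and 86.9 CPM in the injured controls and 88.4, 406 and 101 in the injured knockouts, against 19.3 to 60.7 in naive mice. The 5 erythroid markers had a median interaction of -0.42, and 0.44 without replicate 23. The T cell list had 2 tested members and the oligodendrocyte list 1. The part of these other tissues in the interactions was not tested.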

How the data were processed

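Per the labels' protocols, a stranded mRNA kit was used on total RNA from the ganglia of each mouse. The authors deposited unnormalised read counts per gene for 39179 mouse identifiers in 15 libraries. The submitters' processing notes name the build GRCm38, HTSeq 0.6.1, TopHat2 2.0.4, Cufflinks, SAMtools and DESeq2. Neither the annotation release nor the strand setting of the counting is given in the sources used here, so reads of overlapping antisense genes cannot be told apart. Symbols, coordinates, 3′ UTRs and transcript lengths are from GENCODE M21 (37607 identifiers had a symbol).

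The 16976 genes that passed filterByExpr (minimum count 10, by group) were fitted in edgeR 4.0.16 with 4 group means over all 15 libraries, which leaves 11 residual degrees of freedom. TMM factors, estimateDisp and the robust quasi-likelihood F test were used, and p-values were adjusted by Benjamini-Hochberg over all genes tested, two-sided. Genes that did not pass made up 0.131% of all counts. SE is the log2 change divided by the square root of F, and 95% intervals use 11 degrees of freedom. A count of 0 allows up to 0.277 to 0.571 CPM (3 counts) in a library, by counting error alone. Each library is from a separate mouse, and p-values measure the spread between these mice. Median changes of single libraries used log2 of CPM plus 0.5.

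Alternatives were DESeq2 1.42.0, limma-voom 3.58.1 with and without quality weights, other scaling and filters, Cre or Xist as covariates, no wild-type controls, and each library left out. Scripts ran in R 4.3.3 and Python 3.11.15 (NumPy 2.4.6, SciPy 1.17.1, pandas 2.3.3, matplotlib 3.10.9), and the fit was tested on simulated data. The comparison, the 33 gene lists and the named genes were chosen with earlier results of these data known. Named were known injury and cluster genes, the 5 genes of smallest interaction p in each direction (mean of at least 1 CPM) with and without replicate 23, the 10 largest rises and falls called in both genotypes, and up to 4 genes of smallest interaction p per list. Not all of them are printed. Ier3, Klf7, the remaining calls of DESeq2 and the tissue markers Scn10a and Nefh were named after their values were seen.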

Additional observations from a re-analysis of the deposited data

Results flagged for a closer look

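The 5 control naive and the 4 knockout naive mice were checked in 120 sets of values, each a gene or library measure in 1 group. In 5 sets a mouse lay far from the others relative to the range of the group. Chance alone gives about 1 in 20, so these 5 are no more than chance would give. In control naive mice, Trp53i11 was at 9.23 CPM in replicate 3, where the next lowest was 10.4. In control naive replicate 6, Calcb was at 87.1 CPM (next lowest 105.1) and Ndufa1 at 28.5 CPM (next lowest 36.1). In knockout naive replicate 9, Cacna2d1 was at 267 CPM (next lowest 318) and Comp at 10.7 CPM (next lowest 12.5). All 5 were low values in naive mice. The injured groups of 3, replicate 23 among them, were too small for this check.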

How the results depend on the processing

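The count of interaction calls (0) became 13 with DESeq2, 1 with voom quality weights and 1 without a filter. It kept 0 with RLE scaling, limma-voom, a filter of 1 CPM in 3 libraries (16987 genes), Cre as covariate or mitochondrial genes left out. Added after seeing the data, it was 18 without replicates 23 and 15, 1 without 23 and 18, 2 without 23 and knockout SNI 13, 12 with DESeq2 without 23, 1 with Cre as a covariate without 23, 2 with Xist as a covariate and 4 with Xist without 23. Leaving out single libraries gave 0 to 1259. Injury in controls (421) gave 673 with DESeq2, 848 with quality weights, 273 with Cre, 257 without wild types and 280 to 1498 without single libraries. Injury in knockouts (1717) gave 5033 with quality weights, 4766 without wild types and 587 to 4418 without single libraries, and the mean injury effect (2099) 4685, 4090 and 1316 to 4995. The share of genes larger in knockouts (75.7%) was 55.3 to 81.8%. Of the interactions of 58 genes, 51 kept their sign throughout. Without wild types Sox11 was -0.041, Bdnf 0.051, Cacna2d2 -0.15 and Rasgrf1 -0.10. With quality weights Cacna2d2 was -0.071, Slc25a1 -0.042, Calb2 0.048 and Rasgrf1 -0.022. With Cre Cacna2d2 was -0.021 and Rasgrf1 -0.00936, and with DESeq2 Nts was -0.00757. Leaving out single libraries gave -0.20 to 0.47 for Nts, -0.085 to 0.26 for Cacna2d2, -0.00050 to 0.16 for Slc25a1 and -0.10 to 0.19 for Rasgrf1. The cause was not tested. No paired analysis was possible because no replicate number occurs in more than 1 group. With 3 injured mice per genotype, the median SE of an interaction was 0.22, and 0.19 without replicate 23, which limits what could be called.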

Other observations

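The Y-linked genes below were all above 1 CPM in 9 of the 15 libraries, and naive knockout replicates 4 and 5 stood apart from the other 7. Ddx3y, an RNA helicase, was at 165 and 161 CPM in replicates 4 and 5, against 70.2 to 89.4 in the other 7. Eif2s3y, a translation initiation factor subunit, was at 86.6 and 77.0, against 28.2 to 45.2. Kdm5d, a histone demethylase, was at 42.5 and 39.6, against 17.5 to 22.2. Uty, another demethylase gene, was at 65.4 and 70.0, against 26.8 to 34.2. The ranges did not overlap for any of these 4 genes.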
